A study of Mus musculus with 4 samples.

Results

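The collagen chain genes of the mouse were followed in medullary thymic epithelial cells with and without Aire. They were chosen by name alone: a symbol of Col, a number, the letter a and a number, with no measured value used. The rule found 43 genes, with 50 RefSeq IDs, among the 23003 genes and 30794 RefSeq IDs of the count tables. They comprised 8 fibrillar, 9 basement membrane, 7 cartilage, 7 beaded filament, 5 fibril-associated (FACIT) and 4 transmembrane collagen genes, and 3 others, Col8a1, Col8a2 and Col26a1. No gene is in more than 1 class. The cartilage class holds the fibril-forming chains Col2a1, Col11a1 and Col11a2 and the fibril-associated chains Col9a1, Col9a2 and Col9a3, which are left out of the fibrillar and fibril-associated classes. Col12a1 was not matched and was not analysed here. The 6 genes with more than 1 RefSeq ID are described by the ID with the most counts, since IDs of a gene share exons and reads.

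RNA of mTEChi, the medullary thymic epithelial cells that carry much MHC class II, was sequenced in 4 libraries. The Aire-KO mice carried an Aire-deficient allele (Aire-/-) in every cell on the C57BL/6 background, and the WT mice were C57BL/6 animals bought from a breeder. In the first experiment and again in the replicate experiment, each genotype gave 1 library, made from the pooled thymi of 4 mice aged 4 weeks. Thymi were digested with collagenase, a protease that cuts the collagen proteins, and the cells were sorted for high I-A/E and against CD45 and Ly51. Aire itself had 200697 and 175884 counts in the Aire-KO-labelled libraries, against 87229 and 36597 in the WT-labelled libraries. These counts cover the whole transcript and not the deleted part alone, so they do not check the labels, and the libraries are named here by their labels.

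Collagens are proteins of the extracellular matrix in which 3 chains wind into a helix. Fibrillar collagens assemble into the fibres of skin, tendon and vessel walls, basement membrane collagens form the sheets on which epithelia and endothelia rest, and cartilage collagens build the fibrils of cartilage and the matrix of the growth plate. The transcriptional regulator Aire is known for letting mTEChi express genes of other tissues, so that developing thymocytes meet the antigens of those tissues in the thymus. In the thymus, collagens are otherwise known as products of fibroblasts, pericytes and endothelium, and of epithelial cells that make basement membrane.

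The promoters of the 5 collagen genes whose counts differed between genotypes are shown first, because the 3 genes that were lower and the 2 that were higher can then be read beside their start sites. Each line gives the bases from 45 to 16 before the start site of the RefSeq gene model in GRCm38.p6, on the strand of the gene, with TATAAA in capitals.
Col10a1, chr10:34389936-34389965, plus strand: gggaagaaaacagTATAAAtactccagggc
Col11a1, chr3:114030495-114030524, plus strand: tcgggcacacaggaggcgggaggagtgggc
Col23a1, chr11:51289875-51289904, plus strand: ggagctgatgagcgccaggcccccaccacc
Col1a2, chr6:4505573-4505602, plus strand: tctcctcccagcactgagtcccgggcccct
Col3a1, chr1:45311493-45311522, plus strand: tacacacagggaaaaatatattaatcattg
Of the 35 collagen genes with a promoter in the RefSeq table, Col10a1 was the 1 gene with TATAAA in this window, with its first base 32 bases before the start. Of all 32851 promoters of the table, 2.137% had TATAAA there on the gene's strand. Over the whole 300-base window, from 250 bases before to 50 after the start and on either strand, 5 of the 35 collagen promoters held TATAAA, beside 13.616% of all promoters. CCAAT, searched in the same way, was in 12 of the 35, beside 37.408% of all.

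Summed over the 43 genes, the level of collagen transcripts was 1078 and 1423 CPM (counts scaled to a common library size) in the Aire-KO-labelled libraries, against 916 and 846 CPM in the WT-labelled libraries. The groups did not overlap at this scaling, but they overlapped when scaled by library sizes alone. In the first experiment, 156636 of 168899954 counts in the Aire-KO-labelled library was a smaller share than 200567 of 191404483 in that labelled WT. An exact two-sided permutation test of 2 libraries against 2 cannot go below p = 0.333, so single values such as this sum are given as a description, with no test. In bulk RNA, fewer cells of a type and less RNA per cell cannot be told apart, and this holds for each level given here. All 43 genes passed the filter on low counts.

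Single genes were compared by the quasi-likelihood test of edgeR over all RefSeq IDs, and a gene is called where its adjusted p was under 0.05. Of the 43 collagen genes, 2 were called higher in the Aire-KO-labelled libraries, Col1a2 and Col3a1, beside 0.258% of all 26790 IDs tested. Of the same 43 genes, 3 were called lower, Col11a1, Col10a1 and Col23a1, beside 5.58% of all IDs. With the experiment as a block, 9 collagen genes were called higher and 16 lower, beside 10.4% and 16.5% of all IDs. Scaled by library sizes alone, 0 were called higher by edgeR and 5 lower, beside 0.205% and 9.22% of all IDs, whereas DESeq2 called 4 higher and 9 lower, beside 1.91% and 11.9%. At an unadjusted p under 0.05, 5 collagen genes were higher and 14 lower by edgeR, beside 3.96% and 16.9% of all IDs, and the counts of list and class members at that level given here read against these shares. Under library sizes alone 4 were higher at that level, Col14a1, Col6a6, Col1a2 and Col3a1, and 19 lower, beside 1.9% and 20.9%.

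The levels of 7 collagen genes were higher in both Aire-KO-labelled libraries than in either labelled WT, beside 20.9% of all IDs, and those of 20 genes were lower, beside 28.4% of all IDs. The other 16 overlapped. The median log2 fold change, Aire-KO over WT, was -0.23 for the 43 collagen genes and 0.03 for all IDs tested. It was -1.66 for cartilage, -1.05 for basement membrane and 0.14 for fibrillar collagens. The last of these turned negative with library sizes alone (-0.15), a scaling under which the median of all IDs was -0.26. Beaded filament collagens had a median of 0.88 and fibril-associated collagens one of 0.72. The fibrillar and fibril-associated medians depend on which genes were put in the cartilage class. The fibrillar median leaves out Col2a1, Col11a1 and Col11a2, with log2 fold changes of -0.97, -5.45 and -1.18. The fibril-associated median leaves out Col9a1, Col9a2 and Col9a3, with -1.66, -0.04 and -2.01.

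**Figure D1:**
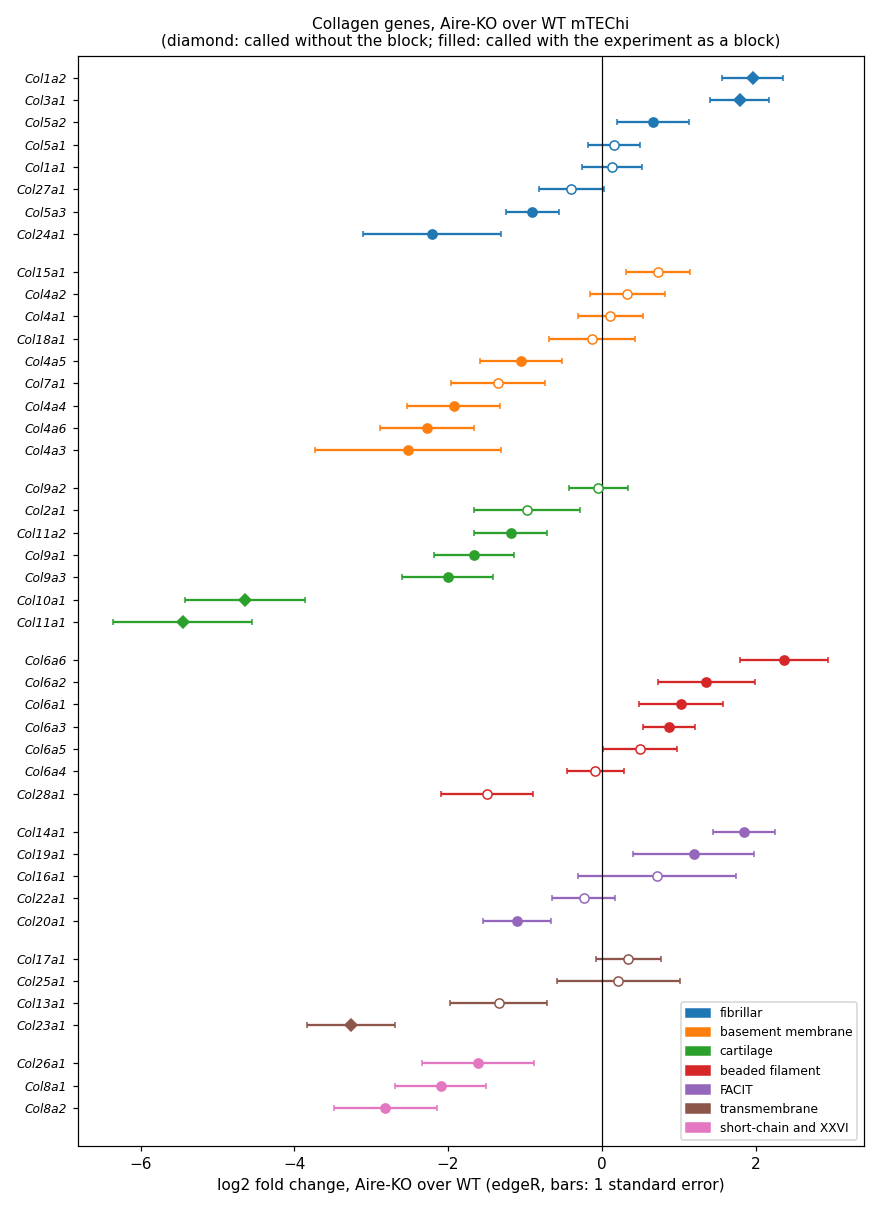
Log2 fold change, Aire-KO over WT, of the 43 collagen genes, 1 row per gene, grouped by class. Points are edgeR estimates from 2 libraries per genotype. Bars are 1 standard error, derived from the quasi-likelihood test, whose dispersion draws on all IDs tested. Diamonds mark the 5 genes called without the block and filled points those called with the experiment as a block. All 7 cartilage collagens lie left of 0, and Col6a6, Col1a2, Col14a1 and Col3a1 lie farthest right.

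Of the cartilage collagens, Col11a1 and Col10a1 were called lower by edgeR and 3 more were called lower with the experiment as a block. The summed level of the class was 15.4 and 17.2 CPM in the Aire-KO-labelled libraries, against 57.0 and 32.5 CPM in the WT-labelled libraries, and its share of all collagen CPM was 1.43% and 1.21%, against 6.22% and 3.84%. Levels did not overlap between genotypes for 6 of the 7 genes, each lower in the Aire-KO-labelled libraries. All 7 fold changes were negative, except that Col9a2 was at 0.22 without the WT-labelled library of the first experiment.

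Col11a1, which encodes a chain of type XI collagen that starts the fibrils of cartilage, differed most of all 43. It lies on chromosome 3 of NCBIM37 (mm9) from 113733458 to 113923636, on the plus strand. It had 5 and 4 counts in the Aire-KO-labelled libraries, against 330 and 89 in the WT-labelled libraries. Its log2 fold change was -5.45 (SE 0.91, adjusted p = 0.0300 with edgeR), and the log2 ratio within an experiment was -5.45 in the first and -5.42 in the replicate experiment. Without the WT-labelled library of the first experiment its log2 fold change was -4.77, and the call was lost (adjusted p = 0.0716 in edgeR).

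Col10a1 encodes type X collagen, the collagen of hypertrophic chondrocytes in the growth plate. It lies on chromosome 10 of NCBIM37 from 34109787 to 34116891, on the plus strand. Its level was 0.319 and 0.135 RPKM (CPM per kb of transcript) in the Aire-KO-labelled libraries, against 8.52 and 2.76 RPKM in the WT-labelled libraries, from 145 and 97 counts against 5841 and 1031. The groups were far apart, although the WT-labelled libraries differed from each other as well. The log2 fold change was -4.64 (SE 0.78, adjusted p = 0.0305 with edgeR), and the gene was called in each of the 11 settings tried, with a log2 fold change of -3.56 without the WT-labelled library of the first experiment.

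The other cartilage collagens differed less. Col9a3, a chain of the type IX collagen that coats cartilage fibrils, was at 0.140 and 0.110 RPKM in the Aire-KO-labelled libraries, against 0.525 and 0.481 RPKM in those labelled WT, and its log2 fold change was -2.01 (SE 0.59). Col9a1, another type IX chain, was at 0.487 and 0.264 RPKM, against 1.31 and 1.06 RPKM in those labelled WT, and its log2 fold change was -1.66 (SE 0.52). Col11a2, the second chain gene of type XI collagen, was at 0.405 and 0.337 RPKM, against 1.02 and 0.669 RPKM in those labelled WT, and its log2 fold change was -1.18 (SE 0.47). Each of these 3 genes was below either WT-labelled library in both Aire-KO pools, and they were called with the experiment as a block (adjusted p of 0.0348, 0.00763 and 0.0369 with edgeR) and not without it (0.107, 0.124 and 0.222).

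Col2a1 and Col9a2 were called in neither fit. Col2a1, the main chain of cartilage fibrils, was at 0.257 and 1.05 RPKM in the Aire-KO-labelled libraries, against 1.36 and 1.22 RPKM in those labelled WT. Its levels in the Aire-KO-labelled libraries thus differed several-fold between experiments, with a log2 ratio over WT of -2.40 in the first and -0.22 in the replicate experiment. Without the Aire-KO-labelled library of the replicate experiment it was called, with an adjusted p of 0.0170 in edgeR. Col9a2, the third type IX chain, was at 3.08 and 2.94 RPKM, against 3.47 and 2.74 RPKM in those labelled WT, and the genotypes overlapped. Among the 3 type IX chains, then, Col9a2 had the highest level and a log2 fold change of -0.04 (SE 0.39).

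A list of 14 noncollagenous cartilage genes held matrix genes and the transcription factor genes Sox5, Sox6 and Sox9. Of the 14, 3 were called lower in the Aire-KO-labelled libraries, and the median log2 fold change of the list was -1.46. The 2 with a positive log2 fold change were Epyc (2.08, SE 0.78) and Sox9 (0.47, SE 0.46). Acan, the core protein of the large cartilage proteoglycan, had 10 and 32 counts there, against 2297 and 1083 in the WT-labelled libraries (log2 fold change -6.52, SE 0.61, adjusted p = 0.0176 with edgeR). Comp, which bridges cartilage collagens, had 84 and 169 counts, against 1742 and 1582 in the WT-labelled libraries (log2 fold change -4.01, SE 0.51, adjusted p = 0.0187). Matn3, a matrilin of cartilage, had 0 counts in each of the Aire-KO-labelled libraries, against 416 and 171 in the WT-labelled libraries (adjusted p = 0.0186). With the experiment as a block 8 of the 14 were called lower and 1 higher.

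The 8 defining markers of chondrocytes, all measured and partly the same genes, summed to 106 and 55.5 CPM in the Aire-KO-labelled libraries, against 92.9 and 105 CPM in the WT-labelled libraries. The sum overlapped between genotypes, unlike that of the cartilage collagens. Epyc, a small proteoglycan, was at 72.2 and 13.4 CPM, against 12.2 and 7.94 CPM in those labelled WT. It made up much of the sum in the Aire-KO-labelled library of the first experiment. Epyc was the 1 marker with a positive log2 fold change, and the median of the 8 was -1.86. Of the 8 markers, 3 were called lower (Acan, Matn3 and Comp), and Matn3 was at 0 in the Aire-KO-labelled libraries. With the experiment as a block, and also by DESeq2, 5 were called lower and 1, Epyc, higher. The part of chondrocyte-like RNA in these values was not tested.

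**Figure D2:**
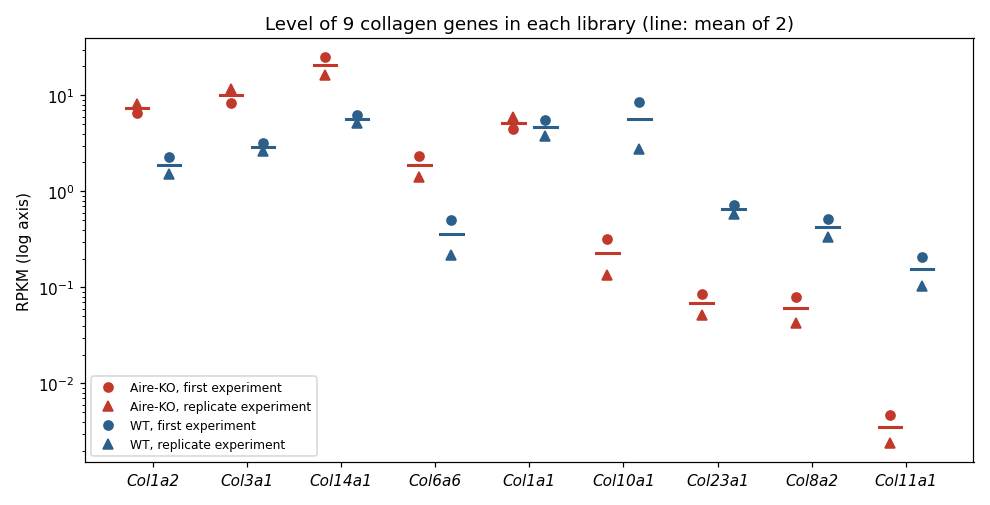
Level of 9 collagen genes in each library, in RPKM on a log axis, with libraries labelled Aire-KO in red left of those labelled WT in blue. Circles are the first and triangles the replicate experiment, and a line is the mean of 2 libraries. Col10a1 sits at 0.319 and 0.135 RPKM in red and at 8.52 and 2.76 RPKM in blue, whereas the levels of Col1a1 overlap.

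Of the fibrillar collagens, Col1a2 and Col3a1 were called higher in the Aire-KO-labelled libraries, while Col1a1 was not. The class's summed level was 234 and 241 CPM in the Aire-KO-labelled libraries, against 207 and 143 CPM in the WT-labelled libraries. Of the 8 genes, 3 did not overlap and were higher in the Aire-KO-labelled libraries, 2 did not overlap and were lower, and 3 overlapped.

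Col1a2 encodes the second chain of type I collagen, the main fibre of connective tissue, and lies on chromosome 6 of NCBIM37 from 4454814 to 4491543, on the plus strand. It was at 6.55 and 8.19 RPKM in the Aire-KO-labelled libraries, against 2.26 and 1.51 RPKM in the WT-labelled libraries. Its log2 fold change was 1.97 (SE 0.40, adjusted p = 0.0434 with edgeR), with 1.53 in the first and 2.44 in the replicate experiment. The call was lost without the WT-labelled library of the replicate experiment (log2 fold change 1.71, adjusted p = 0.172) and with library sizes alone (1.67, 0.0584).

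Col3a1, the only chain of type III collagen, is abundant in soft tissues and vessel walls, and lies on chromosome 1 of NCBIM37 from 45368383 to 45406551, on the plus strand. It was at 8.41 and 11.6 RPKM in the Aire-KO-labelled libraries, against 3.18 and 2.60 RPKM in the WT-labelled libraries. Its log2 fold change was 1.79 (SE 0.38, adjusted p = 0.0487 with edgeR), with 1.40 in the first and 2.16 in the replicate experiment. The call was lost with library sizes alone (adjusted p = 0.0688), without the Aire-KO-labelled library of the replicate experiment (0.0890) and without the WT-labelled library of either the first (0.0526) or the replicate experiment (0.205). The estimate stayed between 1.50 and 2.04 over those settings.

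Col1a1, the chain that pairs with Col1a2 in type I collagen, did not follow it. It was at 4.42 and 5.89 RPKM in the Aire-KO-labelled libraries, against 5.60 and 3.81 RPKM in the WT-labelled libraries, and the groups overlapped. Its log2 fold change was 0.13 (SE 0.39, adjusted p = 0.915 with edgeR), with -0.34 in the first and 0.63 in the replicate experiment. The estimate was -0.16 with library sizes alone. In each experiment the log2 ratio of Col1a2 was thus above that of Col1a1.

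The ratio of the 2 chains can be read within a library, so that no scaling between libraries enters. Counts of Col1a1 over counts of Col1a2 were 0.617 and 0.657 in the Aire-KO-labelled libraries, against 2.26 and 2.31 in the WT-labelled libraries. The ratio was on opposite sides of 1 in the genotypes and differed little between libraries of a genotype. It was lower in the Aire-KO-labelled libraries in separate parts of the transcripts as well. Over the coding exons before the last, the ratio was 0.760 and 0.763 in the Aire-KO-labelled libraries, against 3.07 and 2.87 in those labelled WT. Over the whole last exon it was 0.253 and 0.256, against 0.919 and 0.806 in those labelled WT. These are ratios of counts and not of levels per bp. The last exon is 384 bp in Col1a1, and in Col1a2 it is 487 bp before and 541 bp after a proximal site. A count ratio under 1 there thus does not mean a lower level of Col1a1. As a ratio of RPKM over the transcript, it was 0.675 and 0.719, against 2.47 and 2.52 in those labelled WT. The annotation gives a proximal polyadenylation site to Col1a2 and none to Col1a1. With the last exon of Col1a2 counted upstream of that site alone, the ratio was 0.296 and 0.319, against 1.14 and 1.32 in those labelled WT. The exons of Col1a1 share 109 bp, 1.66% of their length, with the antisense gene Gm17329, and the library kit does not mark strand. The ratio, too, is given as a description, with no test.

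Other pairs of chains were set beside it. Col3a1 over Col1a1 was 2.25 and 2.34 in the Aire-KO-labelled libraries, against 0.673 and 0.810 in those labelled WT, which also did not overlap. Col4a1 over Col4a2, the chains of the common type IV collagen, was 2.37 and 1.82, against 2.77 and 1.94 in those labelled WT, with overlap. Col6a1 over Col6a2, which make type VI collagen with Col6a3, was 1.20 and 1.06, against 1.65 and 1.23 in those labelled WT. These last ratios did not overlap either, but the gap was 1.20 against 1.23.

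**Figure D3:**
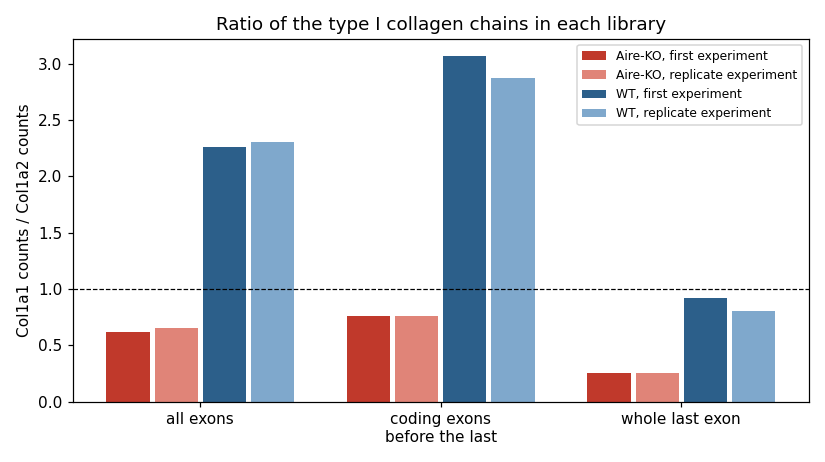
Counts of Col1a1 over counts of Col1a2 in each library, from all exons, from the coding exons before the last and from the whole last exon. The dashed line marks a count ratio of 1. Counts are not scaled by length, and the last exons of the 2 genes differ in length. Bars in red are libraries labelled Aire-KO and bars in blue libraries labelled WT. Over all exons the red bars stand at 0.617 and 0.657 and the blue bars at 2.26 and 2.31.

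The type V chains, which set the width of type I fibrils, had fold changes of different sign. Col5a2 was at 7.48 and 4.25 RPKM in the Aire-KO-labelled libraries, against 4.79 and 2.60 RPKM in the WT-labelled libraries, and its log2 fold change was 0.67 (SE 0.47). Col5a3 was at 2.57 and 2.96 RPKM, against 5.56 and 4.81 RPKM in those labelled WT, and its log2 fold change was -0.91 (SE 0.35). Col24a1, a minor fibrillar chain known from developing bone, was at 0.0550 and 0.0171 RPKM, against 0.247 and 0.0835 RPKM in those labelled WT, and its log2 fold change was -2.21 (SE 0.90). Col5a2 overlapped between genotypes and followed the experiment, with both levels of the first experiment above their counterparts in the replicate experiment. In the fit with the block all 3 were called by edgeR, with adjusted p of 0.0281, 0.00974 and 0.0357, and without it the values were 0.536, 0.199 and 0.230. Without the WT-labelled library of the first experiment the log2 fold change of Col24a1 was -1.18. Col5a1 and Col27a1, the remaining fibrillar genes, were called in neither fit, with log2 fold changes of 0.16 (SE 0.34) and -0.40 (SE 0.42).

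Of 14 genes whose products bind or organise fibrils, 0 were called by edgeR without the block, 5 were higher at an unadjusted p under 0.05 and DESeq2 called 5 higher. The median log2 fold change was 0.44, with 9 positive. With the experiment as a block 6 were called higher and 0 lower. Bgn, the small proteoglycan biglycan, was at 74.2 and 98.5 CPM in the Aire-KO-labelled libraries, against 28.6 and 24.0 CPM in the WT-labelled libraries (log2 fold change 1.71, adjusted p = 0.0529 with edgeR and 0.000193 with the block). Lum, which encodes lumican, was at 19.7 and 16.6 CPM, against 5.84 and 5.16 CPM in those labelled WT (1.72, 0.0529 and 0.000439). Thbs2, a matricellular thrombospondin, was at 45.6 and 33.0 CPM, against 12.5 and 12.9 CPM in those labelled WT (1.63, 0.0553 and 0.000307). Levels of these 3 genes did not overlap between genotypes.

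Fibroblast and mural cell markers were measured beside them. The 11 fibroblast markers, all above 0, summed to 263 and 203 CPM in the Aire-KO-labelled libraries, against 136 and 132 CPM in the WT-labelled libraries. Of these, 1 was called higher, Dpt, which encodes dermatopontin, at 10.5 and 11.5 CPM, against 2.39 and 2.81 CPM in those labelled WT (log2 fold change 2.08, SE 0.41, adjusted p = 0.0404 with edgeR). Dcn, which encodes decorin, was at 143 and 84.4 CPM, against 40.0 and 32.7 CPM in those labelled WT, and made up much of the sum. Dcn and Lum are also among the genes above that bind or organise fibrils, so the 2 lists are not independent. The median log2 fold change of the 11 fibroblast markers was 0.07, with 6 positive. With the block 4 were called higher and 2 lower, Fap and Pi16, and Pdgfrb was at 35.4 and 22.6 CPM, against 28.4 and 26.8 CPM. The 9 markers of pericytes and smooth muscle, all above 0, summed to 614 and 702 CPM, against 429 and 485 CPM in those labelled WT. Their median log2 fold change was 0.10, and 0 were called without the block by edgeR. With it 3 were called higher and 2, Notch3 and Abcc9, lower. Myh11 made up much of the sum, at 239 and 214 CPM, against 140 and 86.1 CPM. Rgs5 was at 204 and 152 CPM, against 164 and 190 CPM, with overlap. The part of such cells in the levels of Col1a2 and Col3a1 was not tested.

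Of the basement membrane collagens, 0 were called by edgeR without the block, 2 were lower at an unadjusted p under 0.05, and DESeq2 called 2 lower. Summed, the 9 genes gave 228 and 451 CPM in the Aire-KO-labelled libraries, against 312 and 307 CPM in the WT-labelled libraries. Of the 9, 5 did not overlap and were lower in the Aire-KO-labelled libraries, 1 did not overlap and was higher, and 3 overlapped. With the experiment as a block 4 were called lower.

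Col4a1 and Col4a2, the chains of nearly all basement membranes, were among the highest collagens of the cells. Col4a1 was at 18.6 and 33.8 RPKM in the Aire-KO-labelled libraries, against 26.1 and 22.4 RPKM in the WT-labelled libraries. Col4a2 was at 8.07 and 19.1 RPKM, against 9.69 and 11.9 RPKM in those labelled WT. The log2 fold changes were 0.11 (SE 0.42) and 0.33 (SE 0.49), and for both genes the sign differed between the experiments. Col18a1, whose protein holds the endostatin fragment, was at 3.02 and 8.96 RPKM, against 5.47 and 7.63 RPKM in those labelled WT, with overlap.

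The chains Col4a3, Col4a4 and Col4a5, which form the basement membrane of the kidney glomerulus, and Col4a6, a chain of skin and smooth muscle, were those 4. Col4a3 was at 0.0655 and 0.00657 RPKM in the Aire-KO-labelled libraries, against 0.333 and 0.0760 RPKM in the WT-labelled libraries, from 82 and 13 counts against 627 and 78. Col4a4 was at 0.133 and 0.0624 RPKM, against 0.309 and 0.434 RPKM in those labelled WT. Neither gene overlapped between genotypes, although Col4a3 was several-fold lower in the replicate than in the first experiment in each genotype. Col4a5 was at 0.894 and 0.370 RPKM, against 1.47 and 1.15 RPKM in those labelled WT. Col4a6 was at 0.0445 and 0.0386 RPKM, against 0.210 and 0.192 RPKM in those labelled WT, with little spread within a genotype. Their log2 fold changes were -2.52 (SE 1.21), -1.93 (SE 0.61), -1.05 (SE 0.54) and -2.27 (SE 0.61). With the experiment as a block the adjusted p of edgeR was 0.00685, 0.0172, 0.0199 and 0.0257, and without it 0.313, 0.124, 0.348 and 0.0834. When a library was left out, the log2 fold change of Col4a3 lay between -4.95 and -1.07. Col7a1, Col15a1 and Col18a1 were called in neither fit, with log2 fold changes of -1.35, 0.73 and -0.13.

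These type IV genes lie in head-to-head pairs, so that the partners share the DNA between their start sites. Col4a3 and Col4a4 start 71 bp apart on chromosome 1 of NCBIM37 and had log2 fold changes of -2.52 and -1.93. Col4a5 and Col4a6 start 1308 bp apart on chromosome X and had -1.05 and -2.27. Col4a1 and Col4a2 overlap by 22 bp on chromosome 8 and had 0.11 and 0.33. Partners therefore had the same sign in each of the 3 pairs, except that Col4a1 was at -0.17 and Col4a2 at 0.07 with library sizes alone. Col9a1 and Col19a1, which lie tail to tail 9151 bp apart on chromosome 1, had -1.66 and 1.20, and both were called with the experiment as a block, while Col19a1 was at -0.19 without the Aire-KO-labelled library of the first experiment. Col3a1 and Col5a2, tail to tail 24614 bp apart, had 1.79 and 0.67.

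Of 16 noncollagenous genes of basement membranes, 1 was called lower by edgeR, and the median log2 fold change was 0.18. Lamc3, a laminin chain, was at 0.227 and 0.409 CPM in the Aire-KO-labelled libraries, against 4.38 and 3.74 CPM in the WT-labelled libraries (log2 fold change -3.66, SE 0.58, adjusted p = 0.0279). Lamb1, a chain of most laminins, was at 118 and 89.4 CPM, against 54.1 and 39.9 CPM in those labelled WT, and Nid1, which links laminin to type IV collagen, was at 4.09 and 10.8 CPM, against 28.5 and 17.8 CPM. With the block 4 of the 16 were called higher and 2 lower.

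Of the beaded filament collagens 4 were called higher with the experiment as a block. Without it edgeR called 0, with 2 higher and 1 lower at an unadjusted p under 0.05, and DESeq2 called 1 higher. Summed, the 7 genes gave 287 and 497 CPM in the Aire-KO-labelled libraries, against 195 and 216 CPM in the WT-labelled libraries. Col6a1, which with Col6a2 and Col6a3 makes the microfibrils around cells, was at 18.8 and 49.2 RPKM in the Aire-KO-labelled libraries, against 13.0 and 20.1 RPKM in those labelled WT. Col6a2 was at 16.7 and 49.5 RPKM, against 8.42 and 17.4 RPKM in those labelled WT. Both genes were higher in the replicate experiment than in the first in each genotype, and the ratio of Aire-KO over WT was positive within each experiment although the genotypes overlapped. Col6a3, for which no length was at hand in the deposited parts, was at 32.9 and 33.1 CPM, against 19.1 and 16.7 CPM in those labelled WT.

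Their log2 fold changes were 1.03 (SE 0.55) for Col6a1, 1.36 (SE 0.63) for Col6a2 and 0.88 (SE 0.34) for Col6a3. In the fit with the block edgeR called the 3 genes, with adjusted p of 0.0112, 0.00112 and 0.00915, and without it the values were 0.369, 0.298 and 0.205. Without the Aire-KO-labelled library of the replicate experiment the log2 fold changes of Col6a1 and Col6a2 were 0.19 and 0.38. Col6a6, a chain related to Col6a3, had the largest positive fold change of all 43 genes. It was at 2.34 and 1.40 RPKM in the Aire-KO-labelled libraries, against 0.504 and 0.217 RPKM in those labelled WT (log2 fold change 2.37, SE 0.57, adjusted p = 0.0643 without the block and 0.000121 with it). Its neighbours on chromosome 9 had smaller values, 0.50 (SE 0.48) for Col6a5 and -0.08 (SE 0.38) for Col6a4. Col6a5 was at 8.57 and 5.01 RPKM, against 6.31 and 3.28 RPKM in those labelled WT, with overlap. Col28a1 had a log2 fold change of -1.50 (SE 0.60) and was called in neither fit.

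The fibril-associated collagens bind the surface of fibrils and do not form fibrils themselves. Col14a1, found on type I fibrils, was at 161 and 105 CPM in the Aire-KO-labelled libraries, against 40.1 and 33.5 CPM in the WT-labelled libraries. Its log2 fold change was 1.85 (SE 0.40), and its adjusted p in edgeR was 0.0518 without the block and 7.11e-05 with it. The class summed to 222 and 164 CPM, against 81.8 and 74.4 CPM in those labelled WT. Col19a1 was at 4.38 and 1.03 RPKM, against 1.75 and 0.606 RPKM in those labelled WT (log2 fold change 1.20, SE 0.79, adjusted p = 0.492 without the block and 0.00608 with it). Col20a1 was at 0.984 and 0.628 RPKM, against 1.84 and 1.62 RPKM in those labelled WT (-1.10, SE 0.44, 0.224 and 0.0212).

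Col16a1 differed widely within a genotype. It was at 0.706 and 6.92 RPKM in the Aire-KO-labelled libraries, against 1.09 and 3.55 RPKM in the WT-labelled libraries, and the replicate experiment was the higher in each genotype. The log2 ratio of Aire-KO over WT was -0.62 in the first and 0.96 in the replicate experiment. Without the Aire-KO-labelled library of the replicate experiment its log2 fold change was -1.71, against 0.72 with all 4 libraries, and it was called in neither fit. Col22a1 was called in neither fit as well, with a log2 fold change of -0.23 (SE 0.41).

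Among the transmembrane collagens Col23a1, which is shed from the cell surface, was called lower. It lies on chromosome 11 of NCBIM37 from 51103422 to 51397420, on the plus strand. It was at 0.0850 and 0.0514 RPKM in the Aire-KO-labelled libraries, against 0.722 and 0.585 RPKM in the WT-labelled libraries, from 70 and 67 counts against 896 and 395. The log2 fold change was -3.26 (SE 0.57, adjusted p = 0.0336 with edgeR), with -3.09 in the first and -3.51 in the replicate experiment, and the gene was called in each of the 11 settings tried.

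Col17a1, a collagen of the hemidesmosomes that anchor epithelial cells, was the highest of this class. It was at 15.9 and 9.15 RPKM in the Aire-KO-labelled libraries, against 8.39 and 11.3 RPKM in the WT-labelled libraries, with overlap and a sign that differed between the experiments. Col25a1, known from neurons, was at 0.848 and 0.247 RPKM, against 0.679 and 0.261 RPKM in those labelled WT. These RPKM are too high, because in each library most counts of Col25a1 lay outside the transcript parts whose length was used. In CPM, which use no length, Col25a1 was at 2.24 and 0.652, against 1.79 and 0.688 in those labelled WT. Its levels followed the experiment rather than the genotype. Col13a1, known from the neuromuscular junction, had a log2 fold change of -1.34 (SE 0.63) and was called in neither fit.

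The short-chain collagens of type VIII, known from the lattice under the corneal endothelium, were called lower with the experiment as a block. Col8a2 was at 0.0794 and 0.0422 RPKM in the Aire-KO-labelled libraries, against 0.522 and 0.333 RPKM in the WT-labelled libraries (log2 fold change -2.82, SE 0.67, adjusted p = 0.0625 in edgeR and 0.00506 with the block). Col8a1 was at 0.225 and 0.189 RPKM, against 1.25 and 0.525 RPKM in those labelled WT (-2.10, SE 0.59, 0.0940 and 0.00573). Col26a1, known from the gonads, was at 0.132 and 0.482 RPKM, against 0.802 and 1.09 RPKM in those labelled WT (-1.62, SE 0.73, 0.282 and 0.0237). Levels of these 3 genes did not overlap between genotypes.

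The experiments were compared gene by gene, since each held 1 library of each label. The log2 ratio of Aire-KO over WT had opposite signs in the experiments for 10 of the 43 collagen genes (23.3%), beside 23.2% of all IDs tested. These were Col1a1, Col4a1, Col4a2, Col18a1, Col9a2, Col6a4, Col16a1, Col22a1, Col17a1 and Col25a1. None of the 10 was called in either fit. The 5 genes called without the block had the same sign in the experiments.

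**Figure D4:**
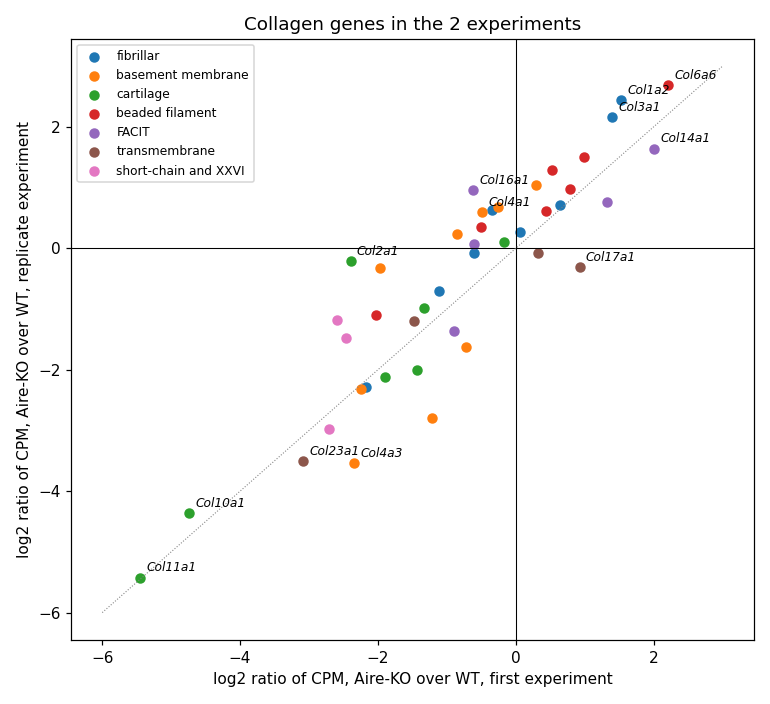
Log2 ratio of CPM, Aire-KO over WT, in the first experiment (x axis) and in the replicate experiment (y axis), 1 point per collagen gene, coloured by class; the dotted line marks equal ratios. Col11a1 and Col10a1 lie near the line at the lower left, Col6a6, Col1a2, Col3a1 and Col14a1 at the upper right, and 10 genes, Col16a1 and Col17a1 among them, lie in the quadrants of opposite sign.

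How a collagen gene was counted depended on its exons. Reads were counted where they lay wholly inside an exon, and most exons of many collagens are short, with a median of 54 bp in Col1a1, Col1a2, Col3a1 and Col2a1. From the GENCODE vM1 gene models on NCBIM37, the share of positions at which a read of 50 bp lies inside 1 exon had a median of 62.6% over the 42 collagen genes found there, with a range of 40.1% to 97.1%. Over 18026 protein-coding genes of the table the median was 85.8%, with quartiles of 76.6% and 94.0%. The share was under 50% in 9 of the 42 collagens (21.4%), beside 0.383% of all genes. In 1 of the 9, Col19a1 (45.1%), the gene model was 4266 bp long and the RefSeq transcript 10542 bp, so its share does not describe the counted transcript. The gene models of 33 collagens were within 60 bp of the RefSeq length. Class medians were 50.3% for cartilage, 58.1% for fibrillar and 63.9% for basement membrane collagens.

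This share is a property of the annotation and the same in every library, so it bears on levels between genes and not on a fold change of 1 gene. Per kb of countable positions, Col1a1 had a mean level of 12.4 in the Aire-KO-labelled libraries, against 11.3 in those labelled WT. Col1a2 had 14.0 on that scale, against 3.59 in those labelled WT. Col10a1, with 3 exons and a share of 96.8%, had 0.238, against 5.92 in those labelled WT. The order of the levels thus changed for some genes with the length used, Col1a1 being at 4.93 RPKM over all 4 libraries and at 11.8 per kb of countable positions. The gene model of Col1a1 used for this was 4065 bp long and its RefSeq transcript 4698 bp.

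**Figure D5:**
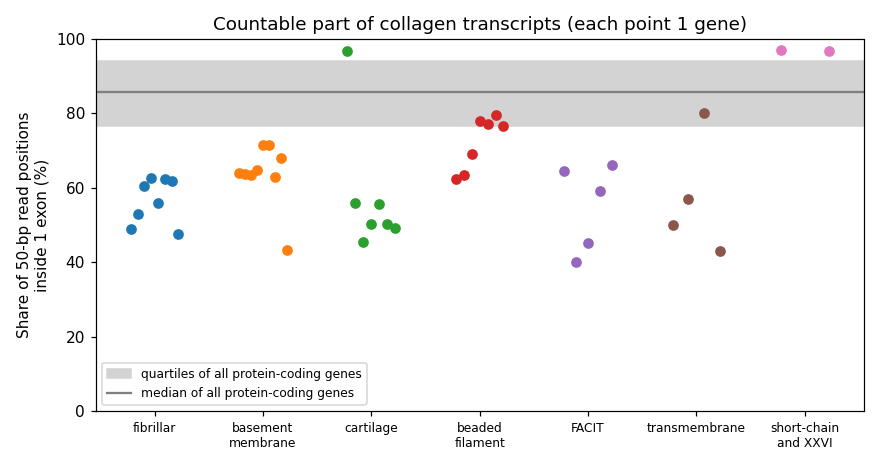
Share of 50-bp read positions that lie inside 1 exon, in percent, for each of 42 collagen genes by class, with 1 point per gene. The grey line is the median (85.8%) and the grey band the quartiles (76.6% and 94.0%) of 18026 protein-coding genes, and all fibrillar and basement membrane collagens lie below the band.

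The study's own measure was the d3'UTR ratio, the reads per bp downstream of the proximal polyadenylation site over those upstream of it in the last exon. A small ratio means that most transcripts end at the proximal site. Of the 43 collagen genes 18 had a d3'UTR, and 11 had at least 100 upstream counts in every library. By edgeR's interaction of region and genotype, 0 collagen genes and 0 of 7842 IDs tested were called (0.0%), and 144 IDs (1.84%), none of them a collagen, had an unadjusted p under 0.05.

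The ratios of the collagens ranged widely between genes. The usage test called 0 IDs of any kind, so the lack of calls does not show equal usage in the genotypes. Of the tested collagens with at least 100 upstream counts, Col1a2 and Col3a1 had the largest log2 differences, Aire-KO minus WT. These were -0.90 (SE 0.58) and 0.65 (SE 0.46). Col3a1 had 0.0526 and 0.0385 in the Aire-KO-labelled libraries, against 0.0208 and 0.0394 in those labelled WT. Col5a2 had 0.0910 and 0.0428, against 0.135 and 0.0511 in those labelled WT. Col9a1 had 0.0336 and 0, against 0.0383 and 0.0550 in those labelled WT, from at most 5 counts in its d3'UTR. The ratio of 0 rests on 0 of 119 counts, and its 95% exact interval reaches 0.184. Col5a1 had 0.241 and 0.228, against 0.270 and 0.199 in those labelled WT, so these 4 genes were near or under 0.25 in each library. Col1a2 had 0.155 and 0.222, against 0.217 and 0.569 in those labelled WT. The value of 0.569 rested on 96 counts downstream and 152 upstream, with a 95% exact binomial interval of 0.436 to 0.739 that covers counting error only.

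Ratios near or above 1 in some or all libraries were those of Col6a1, Col15a1 and Col19a1. Col6a1 had 1.01 and 1.11 in the Aire-KO-labelled libraries, against 1.06 and 1.43 in those labelled WT. Col15a1 had 0.981 and 0.700, against 1.03 and 0.904 in those labelled WT. Col19a1 had 0.930 and 0.833, against 1.09 and 0.620 in those labelled WT. Col4a1 was at 0.747 and 0.510, against 0.774 and 0.634, and Col18a1 at 0.523 and 0.563, against 0.520 and 0.757. The ranges of these genes overlapped those of Col15a1 and Col19a1. Col6a4, another type VI chain, was lower, at 0.340 and 0.303, against 0.363 and 0.359. A ratio under 0.25 was found for 5 and 5 of the 11 collagens, against 4 and 4, and for 38.8% and 43.8% of 5112 genes in the Aire-KO-labelled libraries, against 37.9% and 42.3% in those labelled WT.

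The genes that make, process, bind and degrade collagen were counted as lists. Of 16 biosynthesis genes tested, 0 were called by edgeR without the block, with 3 higher at an unadjusted p under 0.05, and DESeq2 called 2 higher. With the block 5 were called higher, and the median log2 fold change was 0.32. P3h1, a prolyl 3-hydroxylase, was at 19.1 and 20.6 CPM in the Aire-KO-labelled libraries, against 7.88 and 8.84 CPM in those labelled WT (log2 fold change 1.25, adjusted p = 0.100 without the block). P4ha1, which hydroxylates the prolines that stabilise the helix, was at 61.5 and 66.5 CPM, against 31.5 and 21.0 CPM in those labelled WT (1.28, 0.109), and P4ha2, a related subunit, at 22.7 and 25.03 CPM, against 13.4 and 12.5 CPM (0.88, 0.214). Levels of these 3 genes did not overlap.

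Of 13 processing and cross-linking genes, 0 were called by edgeR or DESeq2 without the block, 1 was lower at an unadjusted p under 0.05, and the median log2 fold change was -0.16. With the block Loxl2, a lysyl oxidase, was higher and Adamts3, which trims procollagen, lower, with log2 fold changes of 0.66 and -1.98. Lox, the founding lysyl oxidase, was the third by p, with a log2 fold change of -1.01 (SE 0.61). Of 9 collagen receptors, 0 were called by edgeR or DESeq2 without the block, 1 was lower at an unadjusted p under 0.05, and the median was -0.12. With the block 1 was called higher, Itga1, an integrin chain, at 39.8 and 15.9 CPM in the Aire-KO-labelled libraries, against 15.0 and 10.1 CPM in those labelled WT. Gp6 and Lair1, receptors of blood cells, were at most at 0.210 and 1.53 CPM in any library.

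Of 9 genes of collagen degradation, 1 was called lower. Mmp8, the collagenase of neutrophils, had 20 and 23 counts in the Aire-KO-labelled libraries, against 349 and 302 in the WT-labelled libraries (log2 fold change -4.12, SE 0.67, adjusted p = 0.0289 with edgeR). Mmp13, the collagenase of hypertrophic chondrocytes, had 164 and 62 counts, against 2010 and 652 in those labelled WT (-3.40, SE 0.79, 0.0603, and 0.000103 with the block). Timp1, an inhibitor of such proteases, was at 8.15 and 11.4 CPM, against 12.1 and 24.6 CPM in those labelled WT, and was called lower with the block. Timp3, a related inhibitor bound to the matrix, was at 978 and 681 CPM, against 624 and 337 CPM in those labelled WT, and was called higher with the block (log2 fold change 0.79, adjusted p = 0.413 without the block and 0.0159 with it). With the block 1 of the 9 genes was called higher and 3 lower, and their median log2 fold change was 0.12.

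The sorted cells carried the markers of mTEChi in every library. The 12 mTEC markers summed to 30556 and 37232 CPM in the Aire-KO-labelled libraries, against 17675 and 29330 CPM in the WT-labelled libraries, with 0 called by edgeR or DESeq2 or at an unadjusted p under 0.05 without the block, and 5 called higher with it. Cd74, H2-Aa, H2-Ab1 and H2-Eb1, genes of MHC class II presentation, made up most of this sum in every library. The 7 markers of cortical thymic epithelium summed to 704 and 569 CPM, against 423 and 515 CPM in those labelled WT. Ccl25 made up much of that sum, at 517 and 330 CPM, against 203 and 233 CPM. Enpep, which encodes the Ly51 protein used in the sort, was called lower, at 2.25 and 1.80 CPM, against 14.0 and 12.1 CPM (log2 fold change -2.69, adjusted p = 0.0268 with edgeR). With the block 2 of the 7, Ccl25 and Ly75, were called higher and 1, Enpep, lower. The 9 endothelial markers summed to 36.3 and 92.7 CPM, against 40.0 and 74.8 CPM in those labelled WT, and this sum was higher in the replicate experiment in each genotype. Their median log2 fold change was 0.62, with 7 positive. By edgeR 0 of the 9 were called without the block, and with it 1, Plvap, was called lower. The 8 thymocyte markers summed to 28.5 and 37.5 CPM, against 30.2 and 54.5 CPM in those labelled WT. Of the 8, 0 were called by edgeR without the block, 3 were lower at an unadjusted p under 0.05, DESeq2 called 1 lower and the fit with the block 4 lower, with a median log2 fold change of -1.28. The 1 marker with a positive value, Cd4, made up much of the sum, at 18.04 and 22.4 CPM, against 10.7 and 16.3 CPM in those labelled WT. Of these markers 0 were at 0 in all libraries, and their part in the collagen levels was not tested.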

How the data were processed

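Poly-A RNA of sorted mTEChi was sequenced in 4 libraries with a kit that does not mark strand. Per the methods of the study, the authors cut the paired reads down to single reads of 50 bp and, after a CASAVA filter, aligned these to mm9 using Bowtie (1.0.0 in the submitters' processing notes). Reads lying wholly inside an exon of a RefSeq gene were then tallied by bedtools. The deposited tables hold these raw counts, not normalized, for each RefSeq ID and for each transcript part. Reads across exon junctions are not counted, which lowers levels of genes with short exons. Lengths of the parts, also deposited, are in bp.

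RefSeq IDs were given symbols from the RefSeq gene table (30216 of 30794 matched, 578 had none). The summed counts were 168899954 and 242862323 in the Aire-KO-labelled libraries and 191404483 and 111077552 in those labelled WT. Differences were tested with edgeR 4.0.16 (TMM, filterByExpr, quasi-likelihood test, genotype only, 4 libraries, Benjamini-Hochberg over all 26790 IDs that passed the filter). TMM factors were 0.860 and 0.947 in the Aire-KO-labelled libraries and 1.14 and 1.07 in those labelled WT. CPM are counts per 1000000 of the TMM-scaled library size, and RPKM are CPM per kb of the summed parts. The SE of a log2 fold change is its absolute value over the square root of the F statistic of the quasi-likelihood test. Usage of d3'UTRs was tested on IDs with at least 10 counts in each region. DESeq2 1.42.0 was an alternative, as were its size factors, library sizes alone, no filter, 1 RefSeq ID per gene, the experiment as a block and leaving out each library. Software was R 4.3.3 and Python 3.11.15, and scripts were tested on simulated data.

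The experiment pairs the libraries, because the study describes a replicate experiment and each deposited table holds 1 library of each label. Deviations of the libraries of an experiment from their genotype means correlated at 0.53 over all IDs and 0.77 over the 50 collagen IDs. Log CPM correlated at 0.964 between the Aire-KO-labelled libraries and 0.953 between those labelled WT. The libraries are separate pools of mice, and p-values measure the spread between these libraries only.

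The collagen genes, classes, lists and tests were chosen with earlier results of these data known. Values per library are given for members called with or without the block and for the 3 members of each class with the highest RPKM, the first 3 genes by p of each pathway list, summed levels of marker lists, and d3'UTR ratios with at least 100 upstream counts. Timp3, Cd4, Myh11, Rgs5, Ccl25, Ly75, Plvap, Sox9, Cd74, H2-Aa, H2-Ab1 and H2-Eb1 were named after their values were seen. Other genes are given by fold change. The ratio of type I chains over the whole last exon was added after seeing the data. The authors' annotation of proximal sites was used as deposited.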

Additional observations from a re-analysis of the deposited data

How the results depend on the processing

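The count of collagen genes called higher in the Aire-KO-labelled libraries was 2, with 0 under library sizes alone, 4 with DESeq2, 4 without the filter and 0 to 4 when a library was left out (0 without the WT-labelled library of the replicate experiment, 4 without either Aire-KO-labelled library). The count called lower was 3, with 5 under library sizes alone, 9 with DESeq2 and 2 to 10 when a library was left out (10 without the Aire-KO-labelled library of the first experiment, 2 without the WT-labelled library of the first experiment). With the replicate block, which pairs the libraries of an experiment, the counts were 9 and 16. Members of the pathway and marker lists gave 1 higher (3 with DESeq2 size factors, 11 with DESeq2, 5 without the filter, 31 with the replicate block, 1 to 7 when a library was left out) and 6 lower (10 under library sizes alone, 13 with DESeq2, 24 with the block, 10 to 18 when a library was left out). The usage test called 0 collagen genes in each of its 8 settings.

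The median log2 fold change of cartilage collagens was -1.66, with -1.98 under library sizes alone and -2.17 to -1.45 when a library was left out. That of basement membrane collagens was -1.05 (-1.30 to -0.28, the last without the WT-labelled library of the first experiment) and that of fibrillar collagens 0.14 (-0.04 to 0.45). Signs turned for Col1a1 (-0.16), Col4a1 (-0.17), Col5a1 (-0.14) and Col25a1 (-0.14) under library sizes alone. When a library was left out, the log2 fold change lay between -1.71 and 1.87 for Col16a1, -0.11 and 0.70 for Col17a1, -1.11 and 0.45 for Col18a1, -0.19 and 2.19 for Col19a1, -0.11 and 0.53 for Col1a1, -0.93 and 1.10 for Col25a1, -0.38 and 0.48 for Col4a1, -0.41 and 0.83 for Col4a2, and -0.21 and 0.22 for Col9a2. Of these 9 genes, 0 were called with all 4 libraries by edgeR without the block or by DESeq2, 0 had an unadjusted p under 0.05, and the cause was not tested. Genes that edgeR called without the block once a library was left out were Col24a1, Col4a3, Col4a4, Col4a6, Col6a2, Col6a6, Col8a1, Col8a2 and Col9a1 (the Aire-KO-labelled library of the first experiment left out), Col14a1, Col19a1, Col26a1, Col2a1, Col6a6 and Col8a2 (that of the replicate experiment), Col19a1 and Col6a6 (the WT-labelled library of the first experiment), and Col4a3, Col8a1 and Col8a2 (that of the replicate experiment). A genotype left with 1 library was assumed to vary like the other.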
